A study of Mus musculus with 8 samples.

Results

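The promoters of *Tbx21*, *Gjd3* and *Pla2g3*, all on mouse chromosome 11, carried higher DNA methylation in germline stem (GS) cell lines from ICSI-F1 mice than in lines from control-F1 mice. They were selected on that contrast, as promoters with several raised sites, so the differences between the groups are given as a description and without a test. The promoter table assigned 51 of its 203645 cytosines to these 3 of its 9224 genes: 5 to *Tbx21*, 32 to *Gjd3* and 14 to *Pla2g3*. A cytosine is called hypermethylated here if the ICSI-F1 mean was more than 20 percentage points above the control-F1 mean and all ICSI-F1 lines exceeded the latter. By this rule 18 of the 51 cytosines were hypermethylated (4 of *Tbx21*, 7 of *Gjd3* and 7 of *Pla2g3*), against 0.274% of all promoter cytosines, and 0 were hypomethylated, against 0.0506%. The study, with its own 20% rule and more covered sites, reported smaller shares of both kinds, so these calls are not the study's. At 13 of the 18 the lowest ICSI-F1 line was above the highest control-F1 line. Over the whole table this held for 137 of the 557 hypermethylated cytosines, which are 0.0673% of all promoter cytosines. Of the genes in the table, 3.39% had at least 1 hypermethylated cytosine and 0.358% had at least 4, as each of these 3 had. Because the genes were chosen for these calls, nothing is read from the excess over the background.

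The study followed abnormalities in the offspring of manipulated germ cells over generations, and derived GS cell lines to look at the germ line of F1 mice conceived by intracytoplasmic sperm injection (ICSI), in which a single sperm is injected into an oocyte. GS cells are spermatogonia that multiply in culture and retain stem cell activity. The lines were given as wild type (WT) on the B6 background. They were started from CD9-expressing spermatogonia of mature testes and grown in serum-free medium with FGF2 and GDNF. The study took the sperm for ICSI from mice with an *Egfp* transgene and calls this sperm wild type. Whether the control-F1 parents or the lines carried the transgene is not stated in the paper. Reduced representation bisulfite sequencing (RRBS) was done on 1 library per line. The control-F1 group held lines 29, 37, 44 and 45 from naturally mated mice, and the ICSI-F1 group held lines 11, 17, 20 and 21 from mice conceived by ICSI. The line numbers match those of individual F1 mice in the study's supplement, while shared litters are not stated, and the SD is the spread between lines. The form of the labels and the read numbers split the lines, across the groups, into 2 library sets, with 29, 37, 11 and 17 in library set 1 and 44, 45, 20 and 21 in library set 2. What the sets stand for is not stated, so values within each are given beside the pooled ones, 2 lines against 2. The sets also differed in the mean level over all promoter cytosines. It was 6.14% to 6.88% in the lines of set 1 and 8.24% to 9.26% in those of set 2. Over all promoter cytosines a line had a median coverage of 41 to 82 reads after the authors' scaling was undone.

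*Tbx21* encodes T-bet, the T-box transcription factor that directs T helper 1 and natural killer cell fates and switches on interferon gamma. *Gjd3* encodes a connexin, one of the proteins that line up between neighbouring cells to form gap junction channels. *Pla2g3* encodes a secreted phospholipase A2, which releases fatty acids from membrane phospholipids and is known for a part in the maturation of sperm in the epididymis. DNA methylation in mammals is placed on the cytosine of CpG dinucleotides, mostly on both strands, and dense methylation at a promoter goes with a silent gene. Levels between 0% and 100% in a line cannot tell whether a share of its cells or of its alleles was fully methylated.

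RRBS begins with a digest by MspI, which cuts at CCGG, so coverage comes in fragments that run from one such site to the next. The sequences below hold the CpGs that the results turn on, read from the plus strand of the RefSeq mouse genome (GRCm38.p6, which has the coordinates of mm10), with each CpG in capitals. The *Tbx21* sequence is its whole fragment with the CCGG at either end (chr11:97116135-97116363). That of *Gjd3* spans the raised block with its nearest covered neighbours (chr11:98983531-98983752), and that of *Pla2g3* spans the 5 CpGs with the highest plus-strand differences (chr11:3488065-3488157).
Tbx21: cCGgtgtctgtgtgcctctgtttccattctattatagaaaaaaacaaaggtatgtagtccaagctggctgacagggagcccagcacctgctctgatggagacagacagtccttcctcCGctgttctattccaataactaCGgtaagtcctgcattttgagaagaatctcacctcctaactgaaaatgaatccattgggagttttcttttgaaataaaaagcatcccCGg
Gjd3: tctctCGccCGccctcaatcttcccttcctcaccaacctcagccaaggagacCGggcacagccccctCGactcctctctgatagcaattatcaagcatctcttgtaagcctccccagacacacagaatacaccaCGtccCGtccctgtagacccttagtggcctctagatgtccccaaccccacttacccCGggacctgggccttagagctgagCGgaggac
Pla2g3: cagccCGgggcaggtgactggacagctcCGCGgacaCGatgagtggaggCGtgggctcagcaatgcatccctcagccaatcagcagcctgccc
The *Tbx21* sequence holds 4 CpGs in 229 bases, that of *Gjd3* 8 in 222, across more than 1 fragment, and that of *Pla2g3* 5 in 93, stopping short of the next MspI site. The covered cytosines were only a share of each promoter: 3 of the 34 CpGs in the 1 kb upstream of *Tbx21*, 12 of 25 upstream of *Gjd3* and 9 of 15 upstream of *Pla2g3* had a covered cytosine.

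A block is defined here as the stretch from the first to the last hypermethylated cytosine of a promoter, with neighbouring calls at most 200 bp apart, and every covered cytosine inside it counts. The blocks spanned 24 bp with 4 covered cytosines at *Tbx21*, 182 bp with 11 at *Gjd3* and 102 bp with 12 at *Pla2g3*. Upstream of the starts, the ICSI-F1 mean was above the control-F1 mean at 38 of 38 covered cytosines, against 43.4% of all promoter cytosines, and by more than 10 percentage points at 30 of them, against 1.54%. The choice of the genes by this contrast favours both counts. The table treats the cytosines on either strand of a CpG as separate sites, and the strands did not always differ by the same amount, as the plot of block means by line and strand shows.

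**Figure D1:**
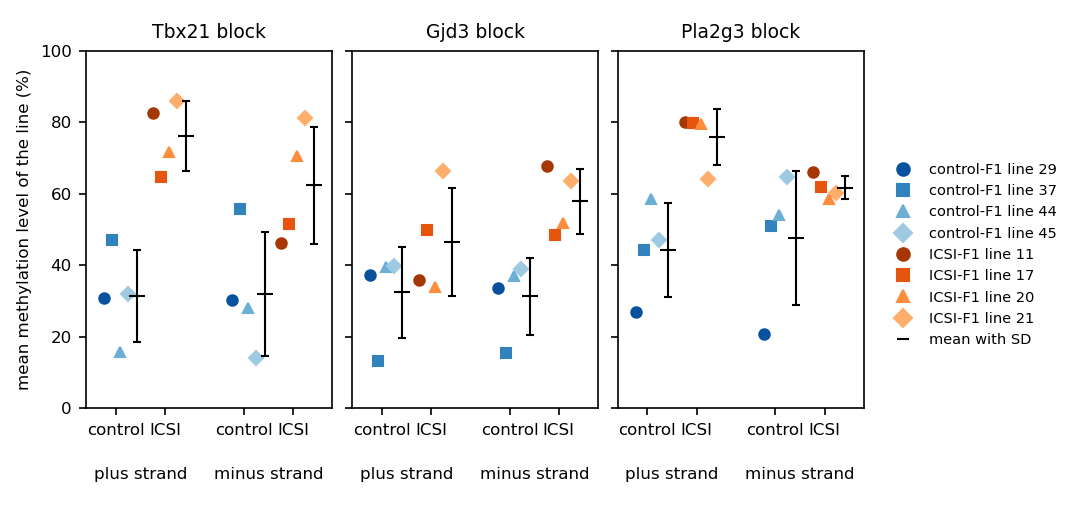
Mean methylation level (%) of each GS cell line over the covered cytosines of the *Tbx21*, *Gjd3* and *Pla2g3* blocks, by strand, with 1 symbol per line and the group mean with SD (n = 4 lines) beside it. The groups are separated on the plus strand at *Tbx21* and *Pla2g3* and on the minus strand at *Gjd3*, and they overlap on the opposite strand of each.

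*Tbx21* (ENSMUSG00000001444, chr11:97098071-97115331, minus strand) had 5 covered cytosines, all in the shore of a CpG island and all in 1 MspI fragment. Its block lies 921 to 944 bp upstream of the listed start and holds 2 CpGs. At position 97116252 of the plus strand the control-F1 levels were 18.9% in line 29, 48.7% in line 37, 25.0% in line 44 and 35.0% in line 45. In the ICSI-F1 lines the levels there were 83.3% in line 11, 75.0% in line 17, 76.7% in line 20 and 92.6% in line 21. Every ICSI-F1 line was thus more than 20 percentage points above every control-F1 line, and the means were 31.9% ± 13.0 and 81.9% ± 7.99 (SD, n = 4 each), a difference of 50.0 percentage points. The 95% Wilson intervals of the single levels cover counting error only. They reached up to 57.5% in control-F1 line 37 and down to 57.9% in ICSI-F1 line 20. This cytosine is the most changed of a promoter chosen by this contrast, so nothing is read from the gap between these intervals.

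The neighbouring plus-strand cytosine, at 97116274, was at 6.45% to 45.4% in the control-F1 lines and 54.2% to 81.8% in the ICSI-F1 lines, again with no overlap and with a difference of 39.6 percentage points. On the minus strand of the same 2 CpGs the differences were 35.3 percentage points at 97116253 and 25.4 at 97116275, and the groups overlapped at both. The overlap came from control-F1 line 37, which was at 53.0% and 58.7%, above ICSI-F1 line 11 at 47.5% and 44.7%. In line 11 the strands themselves stood apart, with 83.3% on the plus and 47.5% on the minus strand of the first CpG. Line 37 was the highest control-F1 line at all 4 hypermethylated cytosines. In the ICSI-F1 lines the plus strand was the shallower one, with 27 to 64 scaled reads at 97116252 against 43 to 88 at 97116253. It was also the shallower one there in control-F1 lines 29 and 44, with 74 and 32 scaled reads against 109 and 70. Control-F1 lines 37 and 45 went the other way, with 234 and 40 against 219 and 35. What depth contributes to the strand difference was not tested.

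At the near end of the fragment the groups were close. At 97116136, which is 116 bp nearer the gene and inside the MspI site, the control-F1 lines were at 4.17% to 14.7% and the ICSI-F1 lines at 6.25% to 16.7%, and the means of 8.29% ± 4.54 and 11.8% ± 4.90 (SD, n = 4 each) differed by 3.46 percentage points. This cytosine had as few as 12 scaled reads in a line. The next annotated feature beyond the block is the processed pseudogene *Gm11572*, at a distance of 521 bp. No covered cytosine lay between the block and the far end of the 1 kb window, so the extent of the block away from the gene was not measured.

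**Figure D2:**
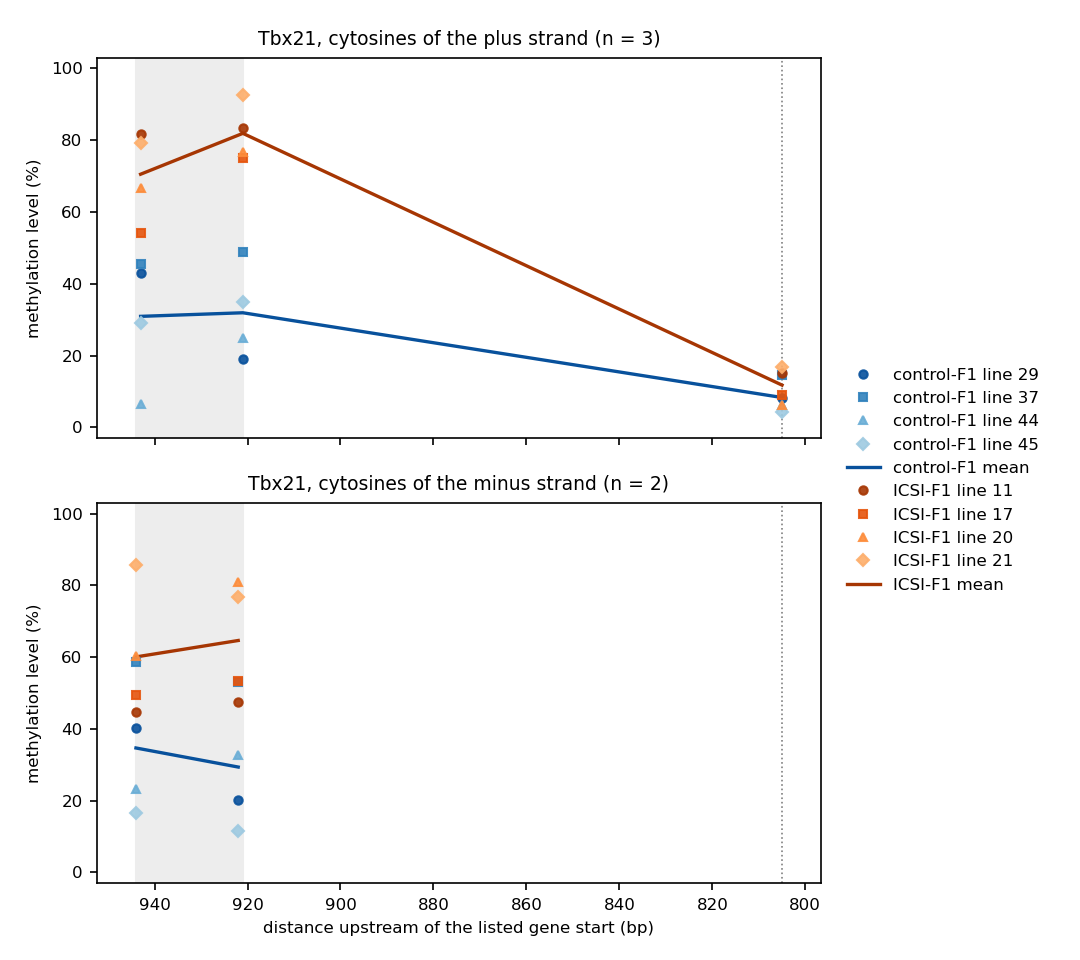
Methylation level (%) of the covered *Tbx21* cytosines against the distance upstream of the listed start (bp), with the plus strand above and the minus strand below. Symbols are the 8 lines, solid lines join the group means, grey marks the block and the dotted line an MspI site, and the level at 805 bp is at or under 16.7% in every line.

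Averaged over the *Tbx21* block, the control-F1 lines were at 30.5% (29), 51.4% (37), 21.9% (44) and 23.0% (45), and the ICSI-F1 lines at 64.3% (11), 58.0% (17), 71.1% (20) and 83.6% (21). The lines did not overlap, and the mean difference was 37.6 percentage points. It was larger in library set 2 than in set 1, at 54.9 and 20.2 percentage points. The sets stood farther apart on the minus strand, where set 1 gave 5.77 percentage points and set 2 gave 54.9, than on the plus strand, where they gave 34.6 and 55.0. Without line 37 the block difference was 44.1 percentage points.

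Line 37 also stood apart in depth at *Tbx21*. The mean scaled coverage of the block was 219 reads in line 37, against 90.0 in line 29, 50.5 in line 44 and 37.3 in line 45, and 35.3 to 74.5 in the ICSI-F1 lines. Coverage was not used to choose the promoters and could be tested. The groups differed by −45.2 scaled reads with ICSI-F1 lower, which an exact two-sided permutation test over 70 arrangements did not separate (p = 0.371, adjusted p = 0.557 over the 3 promoters by the Benjamini-Hochberg method, with 0.0286 the smallest p possible). Without line 37 the difference was −5.19 scaled reads. The part of this depth in the methylation levels of line 37 was not tested.

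*Gjd3* (ENSMUSG00000047197, chr11:98982180-98983016, minus strand) is a gene with a short annotated body, and its 32 covered cytosines fell into 2 separate groups. The 19 cytosines upstream of the start held all 7 calls. The other 13, at 98982023 to 98982179, lie 837 to 993 bp downstream of the listed start, past the annotated end of the gene but inside an exon of the RefSeq transcript NM_178596.3. All 32 are annotated as island shore in the table.

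The 13 downstream cytosines held 0 calls and were low in all lines. They averaged 2.44% to 10.6% in the control-F1 and 3.33% to 8.13% in the ICSI-F1 lines, with a difference of −0.153 percentage points, and 6 of the 13 were higher in ICSI-F1. Their inclusion brings the mean difference down from 17.7 percentage points over the 19 upstream cytosines to 10.5 over all 32. The cytosine at 98982149 on the minus strand was the exception in level, with control-F1 lines at 24.3% to 60.4% and ICSI-F1 lines at 37% to 63.6%, although the plus-strand cytosine of the same CpG had means of 6.25% and 9.24%. That CpG is part of an MspI site, so its strands were read from different fragments.

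Upstream of *Gjd3* the levels were lowest nearest the gene and highest at 729 and 730 bp in both groups, with lower levels again beyond. At 98983469, 453 bp upstream, the control-F1 mean was 8.58% ± 4.90 and the ICSI-F1 mean 16.8% ± 7.23 (SD, n = 4 each). At 98983745, 729 bp upstream, it was 65.9% ± 26.9 and 79.9% ± 9.17. Between these points the ICSI-F1 lines were higher over a block from 98983541 to 98983722, in which 7 of 11 cytosines were hypermethylated and 6 had no overlap.

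Of the 7 calls of *Gjd3*, 5 were on the minus strand. In the 140 bp fragment that holds the middle of the block, all 4 minus-strand cytosines were called with no overlap, with differences of 29.5 to 31.6 percentage points. The mean of these 4 was 28.1% in line 29, 11% in line 37, 41.4% in line 44 and 34.2% in line 45. In the ICSI-F1 lines it was 73.7% in line 11, 45% in line 17, 54.6% in line 20 and 63.3% in line 21. The lowest ICSI-F1 line and the highest control-F1 line were therefore only 3.6 percentage points apart, although the means were 28.7% ± 13.0 and 59.2% ± 12.2 (SD, n = 4 each).

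On the plus strand of the same fragment the groups overlapped. The paired cytosines of 3 of its CpGs, at 98983598, 98983665 and 98983670, differed by 12.8, 4.43 and 1.15 percentage points, where their minus-strand partners differed by 29.9, 29.5 and 30.9. ICSI-F1 lines 11 and 20 held the largest strand gaps at the last 2 of these: at 98983670 line 11 had 18.2% on the plus strand and 63.8% on the minus strand, and line 20 had 20.9% and 51.4%. The depth of the strands was unequal. The plus strand of the fragment had 20 to 68 scaled reads per line and the minus strand 113 to 198, and what this contributes to the strand gap was not tested.

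At the MspI site nearer the gene the plus-strand cytosine, 98983583, was called with a difference of 28.0 percentage points, and its minus-strand partner at 98983584 was not, with 12.3. ICSI-F1 line 21 was at 88.0% on the plus strand, with the other ICSI-F1 lines at 31.8% to 45.5% and the control-F1 lines at 15.0% to 36.4%. At the far end of the block both strands of the CpG at 98983721 and 98983722 were called with no overlap, by 24.3 and 31.6 percentage points. It was the only CpG of *Gjd3* at which both strands were called.

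The edges of the *Gjd3* block were a matter of degree. The minus-strand cytosine at 98983541 was just inside, at 20.9% ± 11.5 and 46.2% ± 8.06 (SD, n = 4 each, a difference of 25.2 percentage points). Its neighbour at 98983537, 4 bp closer to the gene, was just outside the threshold with 19 percentage points, and control-F1 line 45 at 39.4% was above ICSI-F1 line 20 at 34.6%. Farther from the gene, the CpG at 98983745 and 98983746 had differences of 14.0 and 18.0 percentage points on its strands, and control-F1 line 29 was at 100% and 87.4% there. The most distant cytosine, 98983897, differed by 4.57 percentage points.

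**Figure D3:**
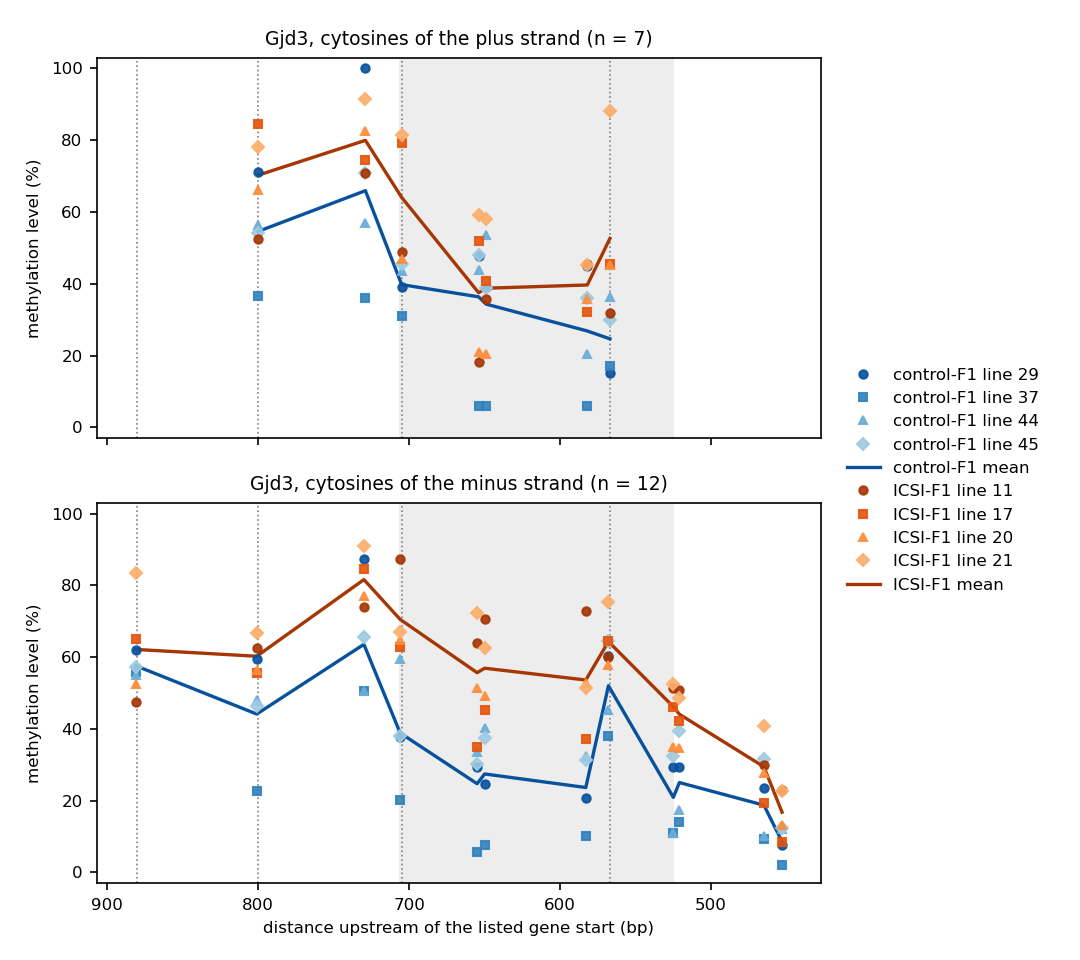
Methylation level (%) of the 19 covered cytosines upstream of *Gjd3* against the distance from the listed start (bp), with the plus strand above and the minus strand below. Symbols are the 8 lines, solid lines join the group means, grey marks the block and dotted lines MspI sites. Inside the block the group means are 29.5 to 31.6 percentage points apart at 4 neighbouring minus-strand cytosines and as close as 1.15 on the plus strand.

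Over the whole *Gjd3* block the line means were 35.3% (29), 14.4% (37), 38.1% (44) and 39.2% (45) in control-F1, and 53.3% (11), 49.1% (17), 43.6% (20) and 64.8% (21) in ICSI-F1. All ICSI-F1 lines were above all control-F1 lines, and the mean difference was 20.9 percentage points. It was 26.3 percentage points in library set 1 and 15.6 in set 2. Line 37, the highest control-F1 line at *Tbx21*, was the lowest here at 6 of the 7 called cytosines, and the block difference without it was 15.2 percentage points. The other 3 control-F1 lines lay within 4 percentage points of each other. The block's mean scaled coverage was 107 ± 12.4 reads in the control-F1 and 95.1 ± 6.81 in the ICSI-F1 group (SD, n = 4 each, difference −12.2, exact permutation test, p = 0.143, adjusted p = 0.429).

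*Pla2g3* (ENSMUSG00000034579, chr11:3488284-3494166, plus strand) had 14 covered cytosines outside islands, shores and shelves, at 14 to 214 bp upstream of the listed start. Of the 3 genes it had the raised block nearest to its start. Its block, 3488070 to 3488171, begins 113 bp upstream of the gene as listed. The RefSeq transcript NM_172791.2 starts at 3488227, and predicted RefSeq models start at 3488158, inside the block.

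All 5 plus-strand cytosines of the 93 bp fragment that makes up most of the *Pla2g3* block were hypermethylated with no overlap, by 32.0 to 39.7 percentage points. Their mean was 19.3% in line 29, 41.9% in line 37, 51.3% in line 44 and 41.9% in line 45. In the ICSI-F1 lines it was 81.9% in line 11, 79.5% in line 17, 79.0% in line 20 and 60.8% in line 21. Lines 11, 17 and 20 were alike and line 21 was lower, yet still above the highest control-F1 line. The group means were 38.6% ± 13.6 and 75.3% ± 9.76 (SD, n = 4 each).

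The highest difference of *Pla2g3* was at 3488093, where the control-F1 lines were at 11.5% (29), 29.7% (37), 46.1% (44) and 22.2% (45). The ICSI-F1 lines there were at 73.1% (11), 73.6% (17), 75.4% (20) and 46.2% (21). The gap between line 21 and line 44 was under 0.1 of a percentage point, so that the groups only just failed to overlap. At the first cytosine of the block, 3488070, the control-F1 lines were at 17.7% to 49.3% and the ICSI-F1 lines at 65.3% to 87.2%.

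The minus strand of the *Pla2g3* fragment differed less. At the 4 CpGs inside the fragment that were read on both strands, 23 to 44 bp from its start, the minus-strand differences were 7.62 to 14.1 percentage points, and 0 of 4 were called. Here the control-F1 lines other than line 29 were already high on the minus strand: at 3488096 line 37 was at 73.2%, line 44 at 66.7% and line 45 at 70.6%, against 59.3% to 79.2% in the ICSI-F1 lines. Line 29 was at 25.9%. In control-F1 lines the minus strand was therefore above the plus strand at these CpGs, with means of 43.8% to 62.9% against 27.4% to 54.9%. In ICSI-F1 lines the plus-strand means were 65.1% to 86.9% and the minus-strand means 51.4% to 75.3%. The plus strand was covered by 68 to 122 scaled reads per line and the minus strand by 23 to 104, and the part of depth in this strand gap was not tested.

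At the MspI site on the gene side of this fragment the call was on the minus strand. The minus-strand cytosine 3488162 was called by the narrowest margin, with a difference of 20.008 percentage points, and 3488171 was called with 21.9. At both the groups overlapped, with control-F1 line 29 at 8% and 4.94% and control-F1 line 45 at 52.3% and 58.3%. The plus-strand cytosine 3488161 differed by 6.82 percentage points and was high in both groups (72.3% ± 16.8 and 79.1% ± 5.17, SD, n = 4 each). Nearer the start, 3488264 and 3488270 differed by 12.9 and 11.6 percentage points and were not called.

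**Figure D4:**
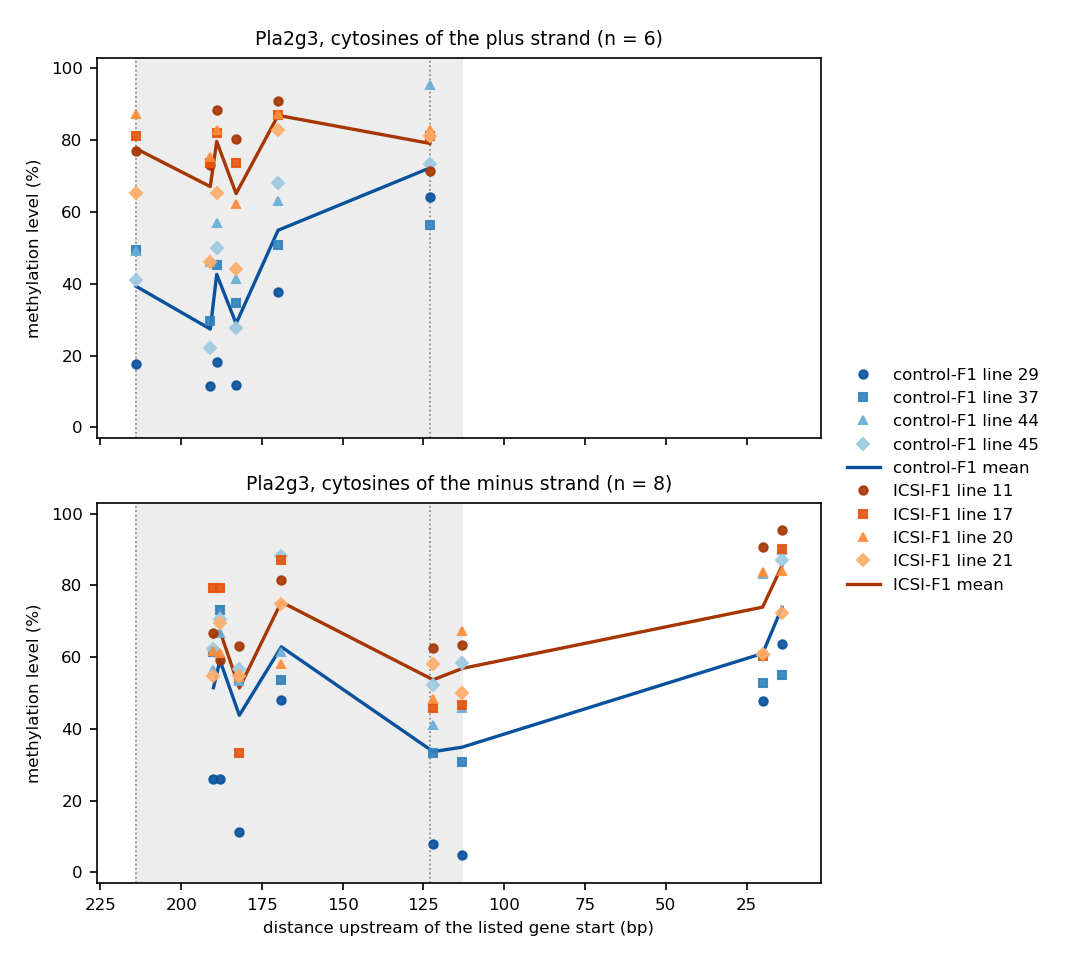
Methylation level (%) of the 14 covered *Pla2g3* cytosines against the distance upstream of the listed start (bp), with the plus strand above and the minus strand below. Symbols are the 8 lines, solid lines join the group means, grey marks the block and dotted lines MspI sites. On the plus strand the group means are 32.0 to 39.7 percentage points apart over 5 cytosines, and on the minus strand control-F1 line 29 is the lowest line through the block.

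Over the *Pla2g3* block the line means were 23.8% (29), 47.7% (37), 56.4% (44) and 55.9% (45) in control-F1, and 73.1% (11), 70.8% (17), 69.1% (20) and 62.2% (21) in ICSI-F1. The ICSI-F1 lines were close together and all above the control-F1 lines, with a mean difference of 22.9 percentage points. Line 29 was the lowest control-F1 line at all 7 called cytosines, and without it the difference was 15.5 percentage points. The difference lay mostly in library set 1, with 36.2 percentage points against 9.52 in set 2. On the minus strand of the block set 2 showed 0.036 percentage points, and on the plus strand 19. Mean scaled coverage of the block was 72.4 ± 15.5 and 76.0 ± 17.8 reads (SD, n = 4 each, difference 3.54, exact permutation test, p = 0.771, adjusted p = 0.771).

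Set side by side, the 3 blocks did not rank the lines alike. Line 37 was the highest control-F1 line at *Tbx21*, the lowest at *Gjd3* and in between at *Pla2g3*, and line 29 was the lowest only at *Pla2g3*. Line 21 was the highest ICSI-F1 line over the *Tbx21* and *Gjd3* blocks and the lowest over the *Pla2g3* block. Nor was the difference larger in the same library set, being larger in set 2 at *Tbx21* and in set 1 at *Gjd3* and *Pla2g3*. Within the blocks, the 95% Wilson interval of a single level in a single line was 10.4 to 46.0 percentage points wide.

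Calls on 1 strand of a CpG were also frequent elsewhere in the table. Across all promoters 80739 CpGs had both strands covered, and of the 319 with a call on either strand 67 (21%) were called on both. Among the 18 such CpGs of the 3 genes, 12 had a call and 3 (25%) were called on both strands. All 3 genes are on chromosome 11, which held 8.23% of the promoter cytosines and 8.26% of the hypermethylated ones. These 46 hypermethylated cytosines include the 18 of the 3 selected genes, so nothing is read from this share. The starts of *Tbx21* and *Gjd3* lie 1.87 Mb apart. No other gene of the table had a cytosine within 5 kb of the 3 starts.

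Genes related to the 3 were described from lists. Of 32 listed genes around T-bet, such as its interferon and interleukin receptors, partners and targets, 10 had covered cytosines. None of the 10 had a hypermethylated cytosine, against 3.39% of all genes, and 1 had a hypomethylated one, against 0.553%. That gene was *Gata3*, the transcription factor of T helper 2 cells, with 2 of its 6 cytosines called lower and promoter means of 18.5% in the control-F1 and 8.56% in the ICSI-F1 group. The promoter differences of the 10 ran from −9.94 to 11.2 percentage points, with the lowest at *Gata3*. Their median was −1.10 percentage points, and that of all genes −0.161. The 3 other connexins with covered cytosines had 0 calls and a median difference of −1.61. The 5 other phospholipase A2 genes had 0 calls and a median of 0.326.

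Promoter levels of marker genes were described as well. Only the germ line list was chosen for methylation known to differ between germ and somatic cells. The other lists were chosen by cell type, so their levels do not check the cells' label. The 8 covered of 16 germ line genes that somatic cells methylate had mean levels of 4.31% to 8.14% in the control-F1 and 2.81% to 8.57% in the ICSI-F1 lines. Those of 8 covered spermatogonial genes were 9.05% to 13.3% and 8.91% to 13.1%. The 3 covered lymphocyte genes were at 89.4% to 96.8% and 93.5% to 95.9%, and the 4 covered fibroblast genes, which mark feeder cells, at 21.9% to 27.5% and 23.8% to 31.7%. The fibroblast genes averaged 30.0% to 31.7% in ICSI-F1 lines 17, 20 and 21, above every control-F1 line, and 23.8% in line 11. Of the 4, 2 had a higher ICSI-F1 mean, both collagen genes. *Col1a2* was at 52.7% to 77.3% in control-F1 and 68.8% to 95.2% in the ICSI-F1 lines over 2 cytosines. *Col1a1* was at 6.76% to 22.8% and 16.2% to 26.0%. The ICSI-F1 mean was lower for *Fap* (6.04% to 8.43% in control-F1, 5.57% to 6.75% in ICSI-F1) and for *Twist1* (2.54% to 5.00% and 1.28% to 3.51%). What this has to do with the levels of the 3 blocks was not tested.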

How the data were processed

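RRBS libraries were made with a Zymo-Seq RRBS kit and sequenced as paired reads of 150 bp. Reads were trimmed with Trim Galore 0.5.0 and aligned to mm10 with Bismark 0.20.0, and cytosines were counted per strand with methylKit (1.16.0 in the submitters' processing notes). The authors scaled coverage between lines, removed cytosines under 10 reads or above the 99.9th percentile, and joined the lines. The deposited values are therefore scores (scaled, rounded read numbers), not raw counts, and no count model was used. The study defined promoters as 1 kb upstream of Ensembl 87 starts, but 13 *Gjd3* rows of the table lie downstream of the listed start and were kept.

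The level is numCs divided by numCs plus numTs, in percent, and group values are unweighted means of 4 lines. Scaling factors of 1 to 1.87 were recovered from the steps in coverage. Wilson intervals use the unscaled reads and cover counting error only, since reads carry no molecular identifiers. MspI fragments, CpGs and transcripts came from RefSeq GRCm38.p6, and gene neighbours from GENCODE M21. The block rule and factor recovery were tested on simulated data (Python 3.11.15, numpy 2.4.6, pandas 2.3.3). Genes named were the 3 members, genes within 5 kb, and listed pathway genes with a call. The 4 fibroblast genes and the pseudogene beside *Tbx21* were named after their values or positions were seen. The members and lists were chosen with earlier results of these data known.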

Additional observations from a re-analysis of the deposited data

Results flagged for a closer look

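The groups of 4 lines were examined for a line far from the others at the 38 upstream cytosines and in the promoter levels, block levels and block coverage of each gene, 94 groups in all. In 10 of them the gap of 1 line to its nearest neighbour, divided by the range of the group, exceeded Dixon's 95% critical value, which chance does in about 1 in 20 groups. Cytosines read from the same fragment, and the means that contain them, are not independent. Control-F1 line 37 was low at *Gjd3*, with a ratio of 0.902 for the mean of all 32 cytosines (13.1%, other control-F1 lines 27.0% to 28.5%) and 0.84 for the block mean (14.4%, others 35.3% to 39.2%). It was also low at both strands of the CpG at 98983670 (5.88%, ratio 0.903) and 98983671 (5.76%, ratio 0.853). ICSI-F1 line 21 was high in the mean of all 32 *Gjd3* cytosines (41.7%, others 31.1% to 32.6%, ratio 0.861). At *Pla2g3*, control-F1 line 29 was low on the minus strand at 3488094 (25.9%, ratio 0.839), 3488096 (25.9%, ratio 0.862) and 3488102 (11.3%, ratio 0.927). ICSI-F1 line 21 was low at 3488093 (46.2%, others 73.1% to 75.4%, ratio 0.92), and ICSI-F1 line 11 was low at 3488161 (71.4%, ratio 0.852).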

How the results depend on the processing

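All 3 block differences stayed positive under each alternative run. The blocks were kept as called on all lines with ICSI-F1 higher, so this sign was favoured in advance and nothing is read from it. Leaving out 1 line at a time gave 32.8 to 44.1 percentage points for the *Tbx21* block, 15.2 to 23.9 for *Gjd3* and 15.5 to 26.4 for *Pla2g3*. In library sets 1 and 2 the *Tbx21* block difference was 20.2 and 54.9 and its promoter difference 16.3 and 45.2, and the *Pla2g3* block difference was 36.2 and 9.52 and its promoter difference 35.2 and 7.46. Requiring 30 scaled reads in every line left only the deeper cytosines and gave 34.2 for the *Pla2g3* block. The number of hypermethylated *Tbx21* cytosines was 4, and 2 with 30 scaled reads, in set 1 alone, or when every ICSI-F1 line had to exceed every control-F1 line. With 30 scaled reads the 2 left were those of the minus strand, at which the groups overlapped. When overlap was not allowed, the 2 left were those of the plus strand. With strands merged both CpGs of the *Tbx21* block were called, which is the most that 2 CpGs allow. The number for *Gjd3* was 7, and 2 at a threshold of 30 percentage points. It was 5 to 12 with 1 line left out, the 12 being without control-F1 line 29. For *Pla2g3* it was 7, and 11 in set 1 and 3 in set 2. The difference in coverage of the *Pla2g3* block, 3.54 scaled reads, reversed in set 1 (−2.13), and ranged from −1.44 without ICSI-F1 line 21 to 11.9, with −0.549 without control-F1 line 37. The values by strand were added after seeing the data. No paired analysis was possible because the groups share no line numbers. Depth limits the shallow strands most, the widest interval being 46.0 percentage points.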
